A study of Mus musculus with 8 samples.

Results

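The type I interferon-stimulated antiviral genes described here are 34 genes chosen by name: the 2 chains of the type I interferon receptor, the transcription factors downstream of it, and the sensors and effectors of the antiviral programme. All 34 were found by symbol among the 32098 gene rows of the table, and all 34 passed the filter on low values. They were measured by RNA sequencing of 8 whole tumours of the mouse line 4T1, a mammary carcinoma line that is transplanted into mice. All 8 samples carry the genotype label WT. In 4 tumours (ICI, replicates 1, 2, 3 and 4) the treatment was an immune checkpoint inhibitor, an antibody-type therapy that releases a brake on T cells, and in 4 tumours (RI, replicates 1, 2, 4 and 5) radiation was given with the inhibitor. Every tumour thus received the inhibitor, and no untreated tumour is among the samples. The labels name neither the inhibitor, the radiation dose, the harvest time nor the age of the mice. They do not say whether a tumour of the RI group lay in the irradiated field. The series' design text speaks of 3 replicates in each group, 4 in each were listed, and all 8 were used. Nothing in the labels says that the tumours came from separate animals, and the p-values reflect the spread among these samples only, part of which may be technical.

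Type I interferons are secreted proteins that bind a receptor made of IFNAR1 and IFNAR2. The receptor-bound kinases JAK1 and TYK2 then phosphorylate STAT proteins, among them STAT2, which join IRF9 in the complex ISGF3. ISGF3 binds a DNA element called the interferon-stimulated response element (ISRE) and switches on a broad set of genes, many of which block steps of viral growth. In tumours, cytosolic DNA and RNA sensed after damage can also start this programme, and it acts both in cancer cells and in immune cells.

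The libraries differed in depth and composition. The recovered totals ran from 27013100 to 42622700 fragments per tumour, and a member had between 164 and 12702 fragments in a tumour. RI 4 stood apart: gene models of ribosomal RNA type held 60.7% of its summed FPKM (fragments scaled for exon length and library size) against 0.97% to 2.25% in the other tumours. ICI 1 had a summed FPKM of neutrophil markers of 21299, against 209 to 642 in ICI 2, 3 and 4 and 19.8 to 79.4 in RI. Mitochondrially encoded genes took 4.37% to 8.14% of the fragments in ICI and 2.56% to 3.22% in RI. The keratins Krt8 and Krt18, markers of simple epithelia, stood at 333 FPKM or more in every tumour, and the epithelial adhesion gene Epcam ranged from 0 to 5.02 FPKM. These are bulk values, in which fewer cells of a type and less RNA per cell cannot be told apart.

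Most of the antiviral genes were higher in the tumours given radiation with the inhibitor. Of the 34 genes, 21 were called higher in RI (limma on log2(FPKM + 1), Benjamini-Hochberg adjusted p under 0.05 over 13439 genes), 0 were called lower and 13 were not called. Among all genes tested 11.1% were called higher and 6.6% lower. An unadjusted p under 0.05 was reached by 25 of the 34. The median difference of the 34 genes was 0.93 on the log2 scale, beside 0.0115 for all genes tested, and 29 of 34 were higher on average in RI, beside 51.1% of all genes tested. In 18 members all 4 RI values lay above all 4 ICI values, which was so for 16.7% of the genes tested, and these 18 were all among the 21 called. The groups overlapped in the called genes Ifit3, Oas1a and Rtp4. The median of the called genes was 1.29 on the log2 scale, and 15 members differed by at least 1 on this scale. For genes at a few FPKM the added 1 makes this difference smaller than the ratio of the FPKM values.

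**Figure D1:**
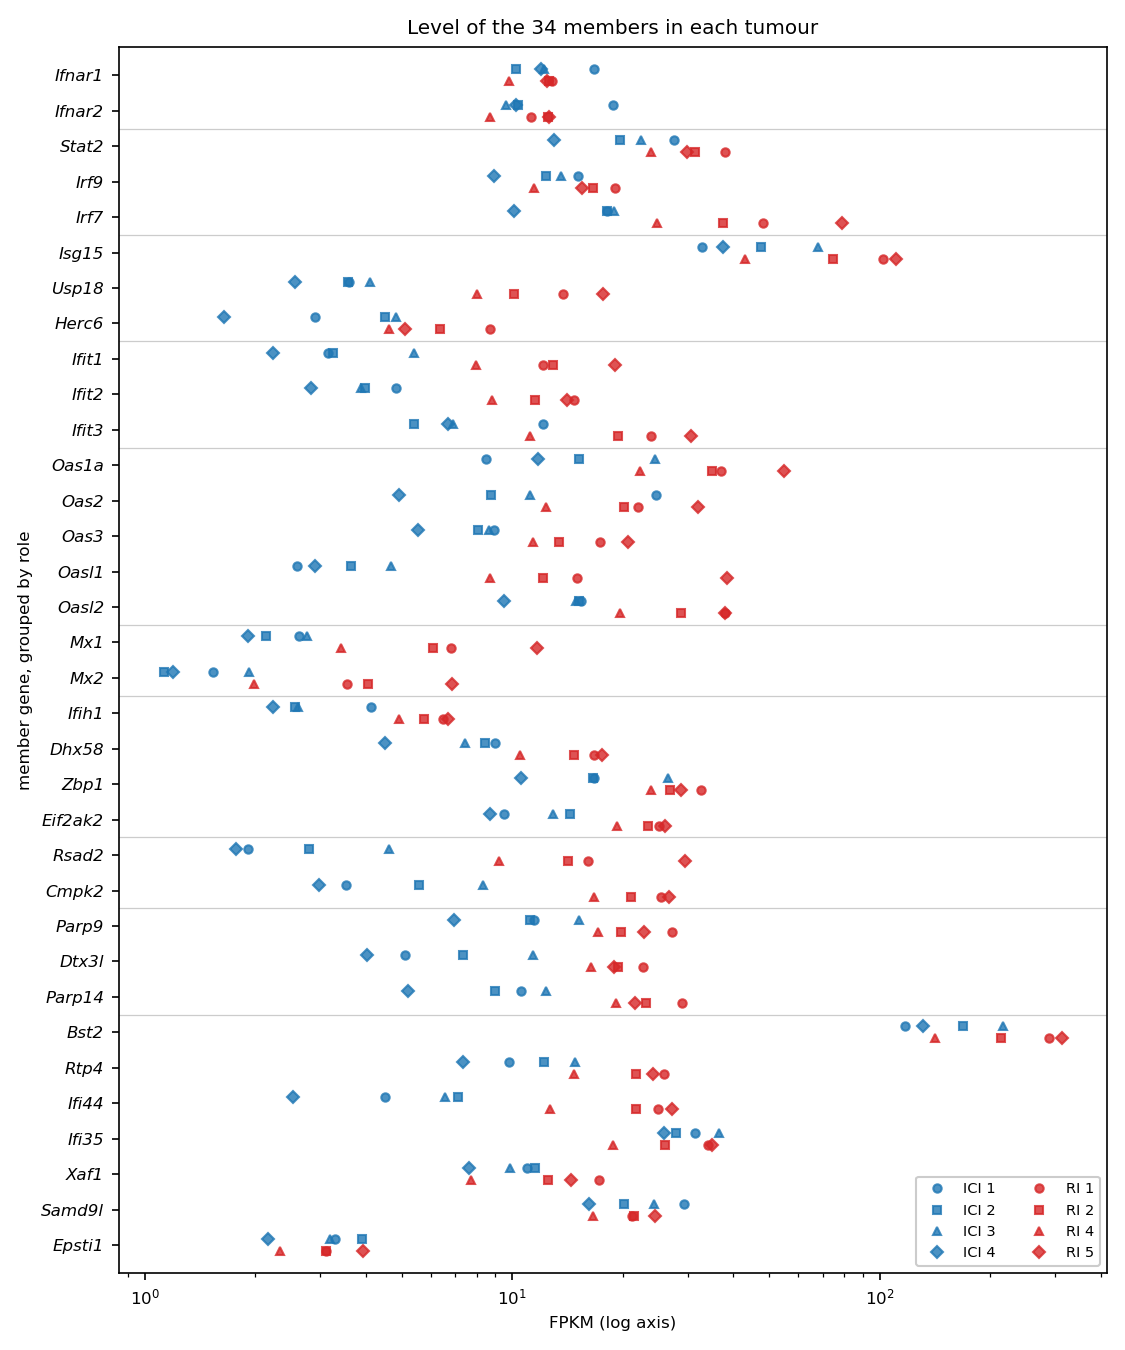
FPKM of the 34 members (rows, grouped by role, log axis) in each tumour, with ICI in blue, RI in red and a marker shape per replicate. The red points lie to the right of the blue points for Usp18, Ifit1, Rsad2 and Ifi44, and both colours mix for Ifnar1, Ifnar2, Samd9l and Epsti1.

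**Figure D2:**
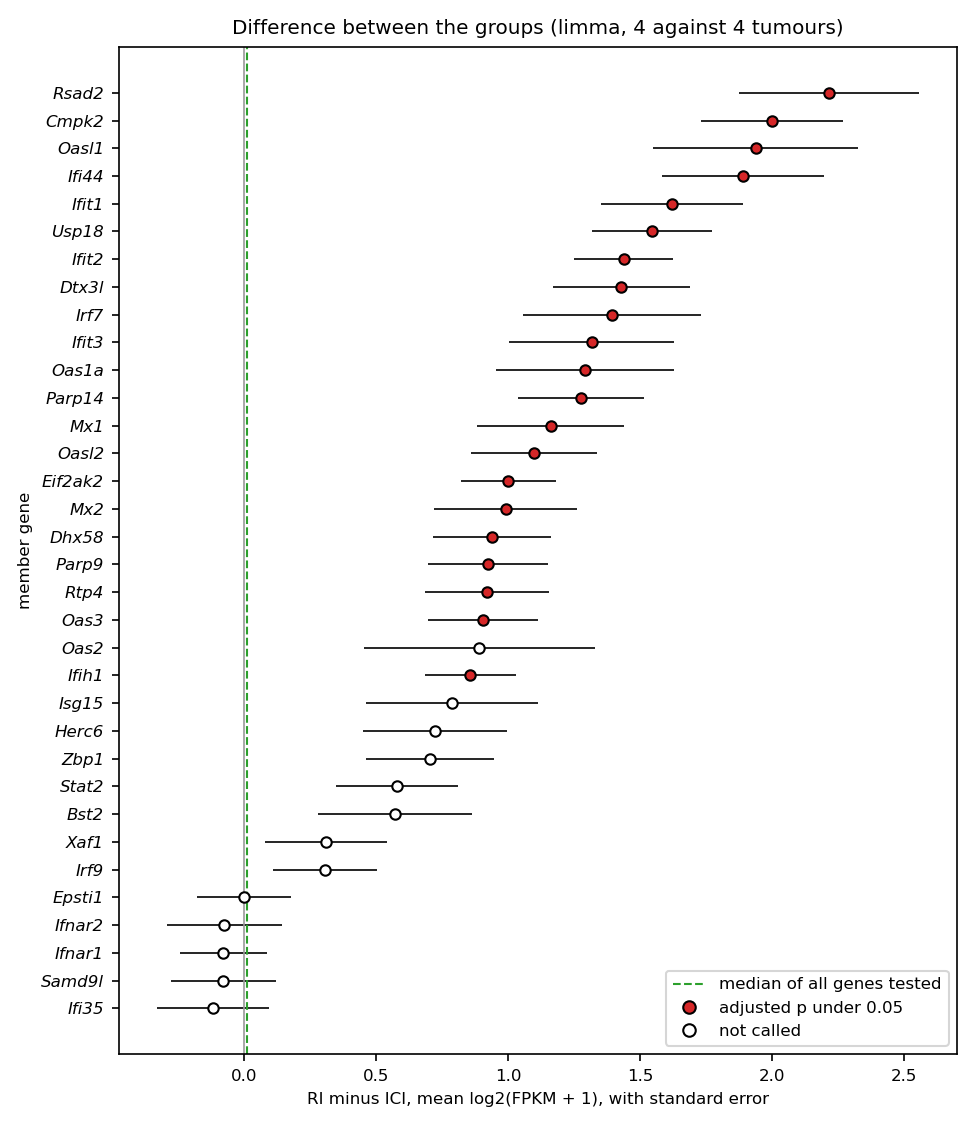
Difference between the groups for each member, RI minus ICI in mean log2(FPKM + 1), with bars of 1 standard error and filled points for genes called by limma. Rsad2 leads at 2.22, and the members at the lower end, Ifi35, Samd9l, Ifnar1, Ifnar2 and Epsti1, lie near 0, beside the dashed median of all genes tested at 0.0115.

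The members' promoters were searched for the elements that interferon-activated factors bind, and the sequences of the most changed genes that hold such an element are printed beside those of the receptor genes. RefSeq gave a promoter for 25 of the 34 members (build GRCm38.p6), and the 250 bases before the start were read. The ISRE core was searched as GAAA, any 2 bases and GAAA again, or TTTC, any 2 bases and TTTC where it lies on the other strand. The core of the gamma-activated site (GAS), an element of interferon-gamma responses, was searched as TTCNNNGAA, which reads the same on both strands. An ISRE core was found in 8 of the 25 promoters (32.0%), those of Rsad2, Ifit1, Ifit3, Oas1a, Oas3, Isg15, Bst2 and Stat2, and in 3.38% of the 9244 genes tested that have a promoter entry. A GAS core was found in 5 of the 25 (20%), those of Bst2, Eif2ak2, Ifit2, Ifnar2 and Oas1a, against 7.03% of these genes. The cores overlapped in 1 member, Bst2. In the sequences below, written 5' to 3' on the strand of the gene, the ISRE core is in capitals. They come from chr12:26456453-26456702 (minus strand), chr19:34640639-34640888 (plus strand), chr19:34583279-34583528 (plus strand) and chr5:120907526-120907775 (minus strand).
Rsad2: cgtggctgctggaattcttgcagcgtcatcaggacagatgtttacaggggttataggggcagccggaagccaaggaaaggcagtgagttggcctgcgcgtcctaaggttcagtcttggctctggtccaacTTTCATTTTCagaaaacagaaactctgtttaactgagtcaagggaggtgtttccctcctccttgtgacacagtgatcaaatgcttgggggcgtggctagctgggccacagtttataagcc
Ifit1: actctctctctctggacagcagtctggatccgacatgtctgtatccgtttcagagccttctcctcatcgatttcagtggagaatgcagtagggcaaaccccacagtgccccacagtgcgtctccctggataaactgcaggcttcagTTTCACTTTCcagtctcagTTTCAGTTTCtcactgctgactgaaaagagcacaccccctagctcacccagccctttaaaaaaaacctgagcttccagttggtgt
Ifit3: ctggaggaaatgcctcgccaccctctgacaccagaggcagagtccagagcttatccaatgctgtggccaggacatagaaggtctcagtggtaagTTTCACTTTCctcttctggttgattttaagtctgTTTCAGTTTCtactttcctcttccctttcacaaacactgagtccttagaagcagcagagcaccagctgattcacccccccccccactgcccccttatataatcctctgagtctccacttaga
Oas1a: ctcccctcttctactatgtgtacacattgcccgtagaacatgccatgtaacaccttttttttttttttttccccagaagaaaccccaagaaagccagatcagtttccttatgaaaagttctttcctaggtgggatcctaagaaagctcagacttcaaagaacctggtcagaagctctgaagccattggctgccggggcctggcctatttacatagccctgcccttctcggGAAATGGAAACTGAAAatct
The promoters of the receptor genes, from chr16:91484965-91485214 (plus strand) and chr16:91372533-91372782 (plus strand), hold no ISRE core in this window and are printed as well.
Ifnar1: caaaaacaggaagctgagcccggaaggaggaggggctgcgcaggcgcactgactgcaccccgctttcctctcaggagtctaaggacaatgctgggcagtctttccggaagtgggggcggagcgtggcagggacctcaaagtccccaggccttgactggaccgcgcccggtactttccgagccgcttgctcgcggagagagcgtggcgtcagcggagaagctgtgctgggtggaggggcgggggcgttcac
Ifnar2: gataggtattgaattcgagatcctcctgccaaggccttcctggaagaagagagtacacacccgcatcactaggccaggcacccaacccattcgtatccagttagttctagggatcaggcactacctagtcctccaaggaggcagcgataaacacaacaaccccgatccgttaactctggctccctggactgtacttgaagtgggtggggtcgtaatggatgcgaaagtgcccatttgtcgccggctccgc

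In Rsad2 the core lies 120 to 111 bases before the start, on the other strand. Ifit1 and Ifit3 each carry 2 separate cores on the other strand, at 104 to 95 and 85 to 76 bases before the start of Ifit1 and at 156 to 147 and 122 to 113 bases before that of Ifit3. In Oas1a 2 overlapping cores make 1 run of capitals whose last base is 5 bases before the start. Of the 8 members with an ISRE core, 5 were called higher, out of 14 called members with a promoter entry. The other 3 (Isg15, Bst2 and Stat2) were not called, out of 11 such members with an entry. The 17 members with a promoter entry and no core include strongly changed genes such as Cmpk2, Oasl1 and Ifi44. A match is a run of letters and not a measured binding site, and its absence says only that the letters are not in this window. The members without a promoter entry are Dhx58, Mx1, Mx2, Oas2, Parp14, Parp9, Rtp4, Usp18 and Zbp1.

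Neither receptor chain was called. IFNAR1 and IFNAR2 are the membrane proteins to which all type I interferons bind, and their genes lie 79648 bases apart on chromosome 16 (Ifnar1 at 91485238 to 91507441, Ifnar2 at 91372783 to 91405589, GRCm38, both on the plus strand). In ICI 1, 2, 3 and 4 Ifnar1 stood at 16.6, 10.3, 12.2 and 11.98 FPKM, and in RI 1, 2, 4 and 5 at 12.9, 12.6, 9.79 and 12.4 FPKM. The groups overlapped, the highest value was that of ICI 1 and the lowest that of RI 4. The difference was -0.08 on the log2 scale (SE 0.16, limma adjusted p = 0.755). For Ifnar2 the ICI values were 18.9, 10.4, 9.62 and 10.3 FPKM and the RI values 11.2, 12.5, 8.71 and 12.6 FPKM, again with the extremes in ICI 1 and RI 4. The difference was -0.08 (SE 0.22, adjusted p = 0.827). Both differences change sign with the libraries that stand apart: without ICI 1 and RI 4 they were 0.13 for Ifnar1 (adjusted p = 0.388) and 0.24 for Ifnar2 (adjusted p = 0.114).

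Of the transcription factors, Irf7 was higher in RI and the ISGF3 subunits Stat2 and Irf9 were not called. IRF7 is itself induced by interferon and drives the genes of the interferon-alpha family. Irf7 (chr7:141262706-141266481, minus strand) had 18.1, 18.1, 18.9 and 10.1 FPKM in ICI and 48.2, 37.4, 24.7 and 78.9 FPKM in RI, so that the lowest RI tumour, RI 4, stood above every ICI tumour. The means were 16.3 ± 4.14 and 47.3 ± 23.2 FPKM (SD, n = 4), a difference of 1.40 on the log2 scale (SE 0.34, limma adjusted p = 0.0263). Stat2, which encodes a STAT subunit of ISGF3, had 27.6, 19.7, 22.4 and 13.0 FPKM in ICI and 37.8, 31.4, 23.9 and 29.9 FPKM in RI. Its groups overlapped only through RI 4, which was below ICI 1, and the difference was 0.58 (SE 0.23, adjusted p = 0.105). Without ICI 1 Stat2 passed, with a difference of 0.73 (adjusted p = 0.0390), and without ICI 4 the difference was 0.38 (adjusted p = 0.239). Irf9, the DNA-binding subunit, had 15.1, 12.3, 13.6 and 8.89 FPKM in ICI and 19.0, 16.6, 11.5 and 15.5 FPKM in RI. Here too RI 4 fell within the ICI range, and the difference was 0.31 (SE 0.20, adjusted p = 0.291).

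In the ISG15 system the protease gene rose and the modifier and its ligase did not pass. ISG15 is a ubiquitin-like protein attached to other proteins, HERC6 is its main ligase in the mouse, and USP18 removes it and also blocks signalling at IFNAR2. Usp18 (chr6:121245906-121270917, plus strand) had 3.601, 3.58, 4.09 and 2.56 FPKM in ICI and 13.8, 10.1, 8.04 and 17.7 FPKM in RI. The groups were far apart, with means of 3.46 ± 0.644 and 12.4 ± 4.24 FPKM (SD, n = 4) and a difference of 1.55 (SE 0.23, limma adjusted p = 0.0117). Isg15 was among the most abundant members, with 32.8, 47.7, 68.1 and 37.5 FPKM in ICI and 102.3, 74.7, 43.1 and 111 FPKM in RI. RI 4 lay inside the ICI range and the other RI tumours above it, and the difference was 0.79 (SE 0.33, adjusted p = 0.117). Herc6 had 2.90, 4.50, 4.84 and 1.64 FPKM in ICI and 8.72, 6.37, 4.61 and 5.11 FPKM in RI. Only RI 4 fell within its ICI range, and the difference was 0.72 (SE 0.27, adjusted p = 0.0907).

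All 3 IFIT genes, which encode proteins that bind foreign RNA ends and block its translation, rose. They lie on chromosome 19 in the order Ifit2, Ifit3, Ifit1, with Ifit1bl1, Ifit3b and Ifit1bl2 between Ifit3 and Ifit1. Ifit1 had 3.14, 3.26, 5.42 and 2.24 FPKM in ICI and 12.1, 12.9, 7.98 and 19.0 FPKM in RI, with no overlap. Its means of 3.51 ± 1.35 and 13.0 ± 4.54 FPKM (SD, n = 4) gave a difference of 1.62 (SE 0.27, limma adjusted p = 0.0130). Ifit2 rose from 3.87 ± 0.819 to 12.3 ± 2.68 FPKM, a difference of 1.44 (SE 0.19, adjusted p = 0.0115). Ifit3 had 12.1, 5.41, 6.89 and 6.68 FPKM in ICI and 23.9, 19.5, 11.2 and 30.6 FPKM in RI. Its groups overlapped in 1 place, where ICI 1 stood above RI 4, and the difference was 1.32 (SE 0.31, adjusted p = 0.0254). Ifit3 has a near-identical copy, Ifit3b, and how reads shared by the pair were assigned is not given in the sources used here, so the split between them is uncertain. Ifit3b rose as well, by 1.80 (SE 0.29, adjusted p = 0.0129).

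In the OAS family 4 of 5 genes rose. OAS1, OAS2 and OAS3 make short oligoadenylates that activate RNase L, and the OAS-like proteins are their relatives. Oasl1 had the largest difference of the family, with 2.60, 3.65, 4.67 and 2.90 FPKM in ICI and 15.0, 12.1, 8.69 and 38.4 FPKM in RI. The groups did not overlap, and RI 5 stood far above the other RI tumours. The means were 3.45 ± 0.924 and 18.5 ± 13.5 FPKM (SD, n = 4), and the difference was 1.94 (SE 0.39, limma adjusted p = 0.0172). Oas1a, the most abundant of the family, had 8.47, 15.2, 24.4 and 11.7 FPKM in ICI and 37.1, 35.0, 22.3 and 54.8 FPKM in RI. ICI 3 stood above RI 4, and the difference was 1.29 (SE 0.34, adjusted p = 0.0330). Reads shared with its near copy Oas1g make the value of Oas1a uncertain, and Oas1g rose by 1.07 (SE 0.27, adjusted p = 0.0303). Oasl2 rose from 13.8 ± 2.83 to 31.1 ± 8.75 FPKM, a difference of 1.10 (SE 0.24, adjusted p = 0.0200). Oas3 rose from 7.80 ± 1.54 to 15.7 ± 4.11 FPKM, a difference of 0.91 (SE 0.21, adjusted p = 0.0231). Oas2, whose gene ends 3244 bases from that of Oas3, was not called. It had 24.7, 8.78, 11.1 and 4.93 FPKM in ICI and 22.0, 20.2, 12.3 and 32.0 FPKM in RI, so that ICI 1 was higher than every RI tumour but RI 5. Its difference was 0.89 (SE 0.44, adjusted p = 0.178), which was 1.27 without ICI 1 (adjusted p = 0.0344) and 0.57 without ICI 4 (adjusted p = 0.365).

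Both Mx genes rose, from low levels. Mx proteins are dynamin-like GTPases that trap viral nucleocapsids. Mx1 had 2.63, 2.14, 2.76 and 1.91 FPKM in ICI and 6.80, 6.10, 3.43 and 11.7 FPKM in RI, with RI 4 only just above the ICI tumours. The means were 2.36 ± 0.402 and 7.01 ± 3.45 FPKM (SD, n = 4), and the difference was 1.16 (SE 0.28, limma adjusted p = 0.0255). Mx2, which the annotation lists as a polymorphic pseudogene, rose from 1.44 ± 0.366 to 4.11 ± 2.03 FPKM, a difference of 0.99 (SE 0.27, adjusted p = 0.0363).

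Of the sensors of nucleic acid, 3 of 4 rose. PKR, encoded by Eif2ak2, is a kinase that halts translation when it binds double-stranded RNA. Eif2ak2 had 9.51, 14.3, 12.9 and 8.72 FPKM in ICI and 25.1, 23.4, 19.3 and 26.0 FPKM in RI. Its groups did not overlap and varied little within themselves, with means of 11.4 ± 2.69 and 23.5 ± 2.96 FPKM (SD, n = 4) and a difference of 1.00 (SE 0.18, limma adjusted p = 0.0144). Dhx58, which encodes the regulator LGP2, rose from 7.34 ± 1.99 to 14.9 ± 3.16 FPKM, a difference of 0.94 (SE 0.22, adjusted p = 0.0253). Ifih1, which encodes the RNA sensor MDA5, rose from 2.89 ± 0.848 to 5.96 ± 0.803 FPKM, a difference of 0.86 (SE 0.17, adjusted p = 0.0166). Zbp1, a sensor of left-handed nucleic acid that can start necroptosis, had 16.7, 16.6, 26.6 and 10.5 FPKM in ICI and 32.6, 26.8, 23.9 and 28.9 FPKM in RI. ICI 3 stood above RI 4, the difference was 0.70 (SE 0.24, adjusted p = 0.0708), and it was 0.92 without ICI 3 (adjusted p = 0.0268) and 0.50 without ICI 4 (adjusted p = 0.160).

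Rsad2 and Cmpk2 showed the 2 largest differences among the members. Viperin, the product of Rsad2, converts CTP to a chain terminator of viral polymerases, and CMPK2 is a nucleotide kinase that supplies CTP. The genes stand head to head on chromosome 12, 12751 bases apart (Rsad2 at 26442746 to 26456452 on the minus strand, Cmpk2 at 26469204 to 26479837 on the plus strand). Rsad2 had 1.91, 2.79, 4.63 and 1.77 FPKM in ICI and 16.1, 14.1, 9.19 and 29.5 FPKM in RI. The lowest RI tumour, RI 4, stood well above the highest ICI tumour, ICI 3. The means were 2.77 ± 1.31 and 17.2 ± 8.67 FPKM (SD, n = 4), a ratio of 6.21, and the difference was 2.22 (SE 0.34, limma adjusted p = 0.0127). Cmpk2 had 3.52, 5.57, 8.32 and 2.99 FPKM in ICI and 25.3, 20.99, 16.7 and 26.7 FPKM in RI, with RI tumours closer to one another than for Rsad2. Its means of 5.10 ± 2.42 and 22.4 ± 4.55 FPKM (SD, n = 4) gave a difference of 2.00 (SE 0.27, adjusted p = 0.0115). In Rsad2 and Cmpk2 alike, ICI 3 was the highest ICI tumour and RI 5 the highest RI tumour.

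The PARP9-DTX3L pair and Parp14 rose. DTX3L is a ubiquitin ligase that works in a complex with PARP9, and PARP14 is an ADP-ribosyltransferase encoded next to them on chromosome 16. Dtx3l had 5.11, 7.35, 11.4 and 4.04 FPKM in ICI and 22.7, 19.4, 16.3 and 19.0 FPKM in RI, with no overlap. Its means of 6.97 ± 3.25 and 19.4 ± 2.62 FPKM (SD, n = 4) gave a difference of 1.43 (SE 0.26, limma adjusted p = 0.0145). Parp9 had 11.5, 11.2, 15.2 and 6.95 FPKM in ICI and 27.3, 19.8, 17.2 and 22.8 FPKM in RI, also without overlap. Its difference was 0.93 (SE 0.23, adjusted p = 0.0268). Dtx3l and Parp9 overlap by 682 bases on opposite strands, and since the strand setting of the counting is not given, reads from the overlap cannot be told apart. Parp14 rose from 9.29 ± 3.06 to 23.2 ± 4.18 FPKM, a difference of 1.28 (SE 0.24, adjusted p = 0.0152). In each of these 3 genes RI 1, not RI 5, was the highest RI tumour.

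The 7 other effectors were divided: 2 rose and 5 were not called. Ifi44, an interferon-induced protein of the cytoplasm, had 4.51, 7.14, 6.57 and 2.53 FPKM in ICI and 24.9, 21.7, 12.7 and 27.2 FPKM in RI. There was no overlap, and the means of 5.19 ± 2.10 and 21.6 ± 6.37 FPKM (SD, n = 4) gave a difference of 1.89 (SE 0.31, limma adjusted p = 0.0129). Rtp4, a chaperone of G protein-coupled receptors, rose from 11.1 ± 3.22 to 21.6 ± 4.90 FPKM, a difference of 0.92 (SE 0.24, adjusted p = 0.0303). Bst2, which encodes tetherin, a membrane protein that holds budding virions, was the most abundant member. It had 118, 168, 216 and 131 FPKM in ICI and 289, 215, 141 and 314 FPKM in RI. RI 2, by a small margin, and RI 4 fell within the ICI range, and the difference was 0.57 (SE 0.29, adjusted p = 0.190). Xaf1, a pro-apoptotic factor, had 10.96, 11.5, 9.87 and 7.64 FPKM in ICI and 17.2, 12.5, 7.71 and 14.5 FPKM in RI. RI 4 was close to the lowest ICI tumour, and the difference was 0.31 (SE 0.23, adjusted p = 0.359).

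Ifi35, Samd9l and Epsti1 had group means that were close to one another. Ifi35, a partner of the adaptor NMI, had 31.3, 27.9, 36.5 and 25.8 FPKM in ICI and 34.02, 26.1, 18.8 and 35.0 FPKM in RI, a difference of -0.12 (SE 0.21, limma adjusted p = 0.715). Samd9l, an antiviral and growth-restraining factor, had 29.4, 20.2, 24.2 and 16.2 FPKM in ICI and 21.1, 21.5, 16.6 and 24.5 FPKM in RI, a difference of -0.08 (SE 0.20, adjusted p = 0.796). Epsti1 had 3.30, 3.89, 3.19 and 2.17 FPKM in ICI and 3.11, 3.11, 2.33 and 3.93 FPKM in RI, a difference of 0.00 (SE 0.18, adjusted p = 0.996). In all 3 genes the groups overlapped over most of their range. The signs of these small differences turned in several alternatives, and a p above the threshold does not show that the groups were alike.

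Isg15 and Bst2 are the 2 shortest members, with 756 and 903 bases of exon against a median of 4045 for the members and 3768 for all genes tested. Once the dependence on exon length and GC content was taken out of each library, Isg15 passed with a difference of 1.11 (limma adjusted p = 0.0234) and Bst2 with 0.91 (adjusted p = 0.0285). The same correction left 23 of 34 members called higher, the 21 of the uncorrected fit and these 2. Both also passed with quantile normalization, which uses neither length nor GC content. There Isg15 differed by 0.90 (limma adjusted p = 0.0423) and Bst2 by 0.87 (adjusted p = 0.0266). Isg15 passed too with array weights (adjusted p = 0.0389), without RI 4 (0.0443) and without ICI 1 and RI 4 (0.0354). The part of length and GC content in the 2 genes was not tested.

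Within each group the tumours fell in a similar order for many of the antiviral genes. The mean of log2(FPKM + 1) over the 34 genes ran 3.37, 3.33, 3.56 and 2.88 across ICI 1, 2, 3 and 4 and 4.43, 4.21, 3.75 and 4.59 across RI 1, 2, 4 and 5. ICI 4 was the lowest ICI tumour in 26 of 34 genes, ICI 3 was the highest in 18 and ICI 1 in 12. RI 4 was the lowest RI tumour in 34 of 34 genes. RI 5 was the highest RI tumour in 22 genes, and RI 1 was the highest in the other 12: Ifnar1, Stat2, Irf9, Herc6, Ifit2, Oasl2, Zbp1, Parp9, Dtx3l, Parp14, Rtp4 and Xaf1. RI 4 is the library in which gene models of ribosomal RNA type held 60.7% of the summed FPKM. Its median over all genes tested was 2.78 against 2.88 to 3.09 in the other tumours. FPKM were also rescaled to their length-weighted total over the rows found in the annotation GENCODE M21, with mitochondrial genes left out. RI 4 was then the lowest of its group in 27 of 34 genes. The part of the ribosomal-like gene models in these values was not tested.

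**Figure D3:**
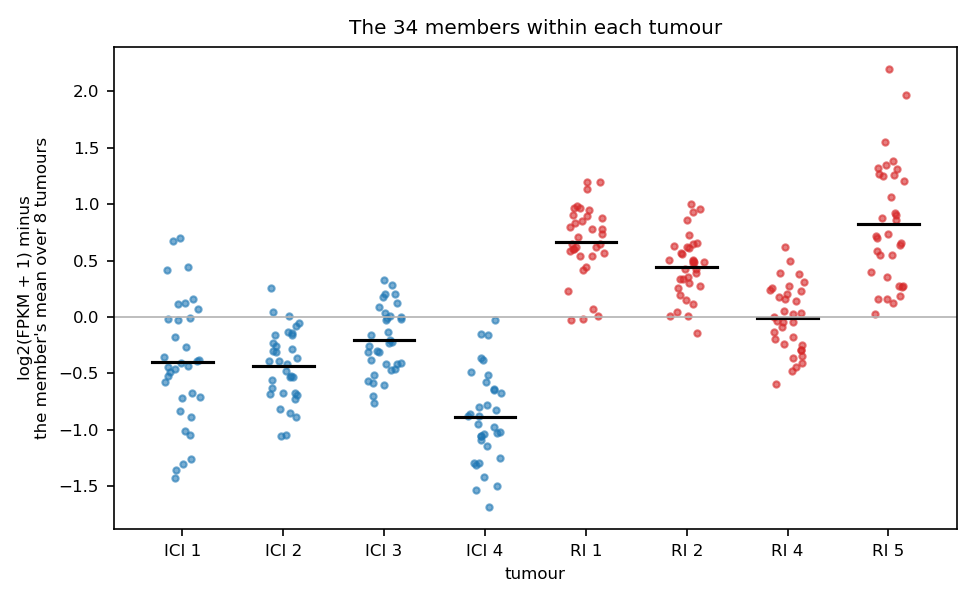
Each point is 1 of the 34 members in 1 tumour, as log2(FPKM + 1) minus the member's own mean over the 8 tumours, and black lines are means over members. ICI 4 is the lowest column, RI 5 and RI 1 are the highest, and RI 4 lies near 0, between the other RI tumours and ICI 3.

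The ligands that start the pathway were at low levels. Of 18 type I interferon genes on the list, 7 were found in the table, and all 7 were below the filter of 1 FPKM in at least 4 tumours. Ifnb1, which encodes interferon beta, was listed at 0 in all 4 ICI tumours and in RI 2 and RI 4. It had 0.0494 FPKM in RI 1 (1 fragment) and 0.719 FPKM in RI 5 (23 fragments). A count of 0 allows up to 3 fragments, which is 0.0940 to 0.121 FPKM in the ICI tumours, by counting error alone. For Ifnb1 the two-sided exact permutation test (70 regroupings) gave p = 0.429, where 0.0286 is the smallest p that 4 against 4 tumours allow. Ifng, the type II ligand, had 0.563, 0.613, 0.463 and 0.508 FPKM in ICI and 1.31, 0.480, 0.149 and 0.109 FPKM in RI (exact permutation p = 0.886). RI 5 thus had the highest Ifnb1 value and RI 1 the highest Ifng value of the 8 tumours. Ifnz was the 1 type I ligand with fragments in every tumour, 27 to 54 of them, at 0.45 to 0.839 FPKM in ICI and 0.53 to 1.02 FPKM in RI. The other 6 type I ligands, Ifnz included, and Ifnl3 gave exact permutation p-values of 0.543 or more.

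The signalling genes between receptor and ISGF3 gave 1 call. Jak1, the kinase shared by the interferon receptors, had 23.6, 20.3, 20.2 and 18.3 FPKM in ICI and 29.5, 31.3, 27.0 and 29.0 FPKM in RI. The groups did not overlap, and the difference was 0.49 (SE 0.13, limma adjusted p = 0.0339). The call did not hold after the length and GC correction (0.23, adjusted p = 0.145), nor in 6 of the 8 fits that left out 1 tumour. Tyk2, the partner kinase, had 15.7, 8.02, 8.21 and 9.07 FPKM in ICI and 7.83, 6.73, 6.40 and 8.72 FPKM in RI, a difference of -0.38 (SE 0.21, adjusted p = 0.222).

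Among the other regulators, Irf3 fell, Ptpn11 rose, and Irf1 and Socs1 were not called. Irf1, a transcription factor induced by interferons, had 55.1, 57.9, 63.1 and 33.4 FPKM in ICI and 95.0, 62.1, 52.9 and 36.9 FPKM in RI, a difference of 0.19 (SE 0.30, limma adjusted p = 0.671). Socs1, a feedback inhibitor of the JAK kinases, had 8.90, 8.78, 13.4 and 9.26 FPKM in ICI and 23.7, 11.6, 9.55 and 8.04 FPKM in RI, a difference of 0.26 (SE 0.29, adjusted p = 0.544). In both genes RI 1 was the highest of all tumours and RI 5 the lowest of its group. Without RI 1 the differences were -0.04 for Irf1 (adjusted p = 0.937) and -0.04 for Socs1 (adjusted p = 0.912). Irf3, a factor that starts interferon production, fell: it had 29.7, 17.9, 19.4 and 16.7 FPKM in ICI and 13.7, 12.8, 8.94 and 10.5 FPKM in RI. Every RI tumour was below every ICI tumour, with a difference of -0.80 (SE 0.20, adjusted p = 0.0309), and the call was lost in 5 of the 8 fits that left out 1 tumour. Of the 6 negative regulators only Ptpn11, the phosphatase SHP2, was called. It rose from 11.7 ± 2.02 to 24.9 ± 1.54 FPKM (SD, n = 4), a difference of 1.04 (SE 0.15, adjusted p = 0.0115).

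Upstream of the ligands, 5 of 11 genes that induce them rose and 0 fell, beside 11.1% and 6.6% of all genes tested. Rigi, the RNA sensor RIG-I, rose from 5.90 ± 1.44 to 13.9 ± 2.87 FPKM (SD, n = 4), a difference of 1.12 (SE 0.21, limma adjusted p = 0.0152). Mavs, the mitochondrial adaptor of RIG-I and MDA5, rose from 6.77 ± 1.46 to 14.8 ± 1.01 FPKM, a difference of 1.04 (SE 0.15, adjusted p = 0.0121). Tlr9, an endosomal sensor of DNA, stood at 0, 0.157, 0.118 and 0.0405 FPKM in ICI and at 2.94, 1.91, 2.34 and 1.25 FPKM in RI. Its difference was 1.501 (SE 0.20, adjusted p = 0.0115), but it passed the filter of 1 FPKM through the RI tumours alone, so its call gives no support to the count of 5. Among 45 other interferon-stimulated genes tested, 16 rose, 1 fell and 28 were not called. The largest called rises beside Ifit3b were those of Trim30a, from 6.09 ± 2.54 to 20.5 ± 4.23 FPKM (1.64, SE 0.25, adjusted p = 0.0126), and of Lgals3bp, from 49.0 ± 13.9 to 138 ± 32.5 FPKM (1.49, SE 0.25, adjusted p = 0.0130). Isg20, an exonuclease, was the gene that fell, from 49.7 ± 7.33 to 32.0 ± 3.90 FPKM (-0.61, SE 0.16, adjusted p = 0.0343), and its call held in 1 of the 8 fits that left out 1 tumour. Over the 73 pathway genes outside the members that were tested, 23 rose, 2 fell and the median difference was 0.40. The 23 include Tlr9, whose call gives no support to this count either. Among all genes tested 11.1% were called higher and 6.6% lower.

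**Figure D4:**
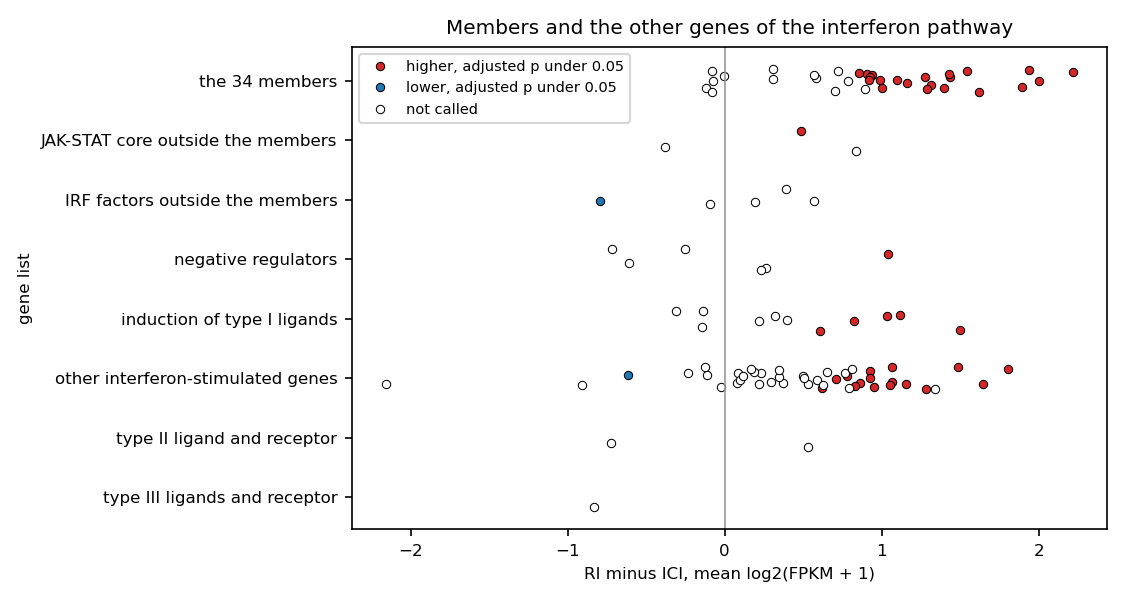
Difference between the groups, RI minus ICI in mean log2(FPKM + 1), for each tested gene of the 34 members and of the 7 other gene lists, with vertical scatter only to separate points. Filled points were called by limma. In the members 21 points are red, and in the other interferon-stimulated genes 16 are red and 1 is blue.

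Some markers of other cells differed between the groups. Of 39 markers tested, 7 rose, 5 fell and 27 were not called, beside 11.1% of all genes tested called higher and 6.6% lower. Of the 7, Lum, Ckm and Myh4 passed the filter through the RI tumours, so their calls give no support to this count. In the lists of conventional dendritic, NK, B and plasma, endothelial, epithelial and adipocyte cells 0 markers were called. Of 7 macrophage markers Adgre1 and Mrc1 rose, 0 fell, and the summed FPKM of the list was 342 to 435 in ICI and 553, 435, 330 and 821 in RI 1, 2, 4 and 5. Adgre1, which encodes the macrophage antigen F4/80, was at 1.12 to 1.47 FPKM in ICI and 6.14 to 9.02 FPKM in RI (limma adjusted p = 0.00158). Csf1r (0.31, adjusted p = 0.353), Cd68 (-0.16, adjusted p = 0.559), C1qa, C1qb and C1qc were not called, and their groups overlapped. Of 6 fibroblast markers 3 rose (Col1a1, Col1a2 and Lum, the last of which reached 1 FPKM in the RI tumours and ICI 2 alone), with sums of 37.4 to 51.6 FPKM in ICI and 76.2 to 359 FPKM in RI. Of 6 neutrophil markers tested S100a8 and S100a9 fell, and 0 rose. Of 4 erythroid markers tested Hba-a1 and Hbb-bt fell, with sums of 209 to 1063 FPKM in ICI and 0.465 to 103 FPKM in RI. Of 4 skeletal muscle markers Ckm and Myh4 rose, with sums of 1.16 to 184 FPKM in ICI and 87.1 to 483 FPKM in RI. Acta1 and Tnnt3 were not called, and in all 4 markers the groups overlapped. Myh4 reached 1 FPKM in the RI tumours and ICI 3 alone, and Ckm in the RI tumours, ICI 2 and ICI 3 alone. Both thus passed the filter through the RI tumours. Of 3 T cell markers tested Trac fell, by 1.01 on the log2 scale (adjusted p = 0.0211), with every RI tumour below every ICI tumour. Cd3g (-0.31, adjusted p = 0.426) and Cd8a (-0.26, adjusted p = 0.492) were not called, and their groups overlapped. Cd3d, Cd3e and Cd4 were below the filter. Plasmacytoid dendritic cells are a known source of type I interferon. Of their 6 markers 1 was tested and 0 were called, and Siglech, a defining one, was at 0.139 FPKM or less in every tumour and at 0 in 4. The part of macrophage, fibroblast, neutrophil, erythroid, muscle and T cell content, and of plasmacytoid dendritic cells, in the values of the antiviral genes was not tested.

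How many of the antiviral genes were called depended on which tumours entered. Without ICI 4, the lowest tumour, 9 of 34 were called higher (26.5%, beside 1.81% of all genes). Without RI 1, RI 2 or RI 5 it was 11, 11 and 12, beside 4.15%, 3.04% and 4.77% of all genes. Without RI 4 or without ICI 1, the libraries that stood apart, 22 and 23 were called, beside 8.85% and 11.7% of all genes. Without both, 24 were called (70.6%, beside 15.2% of all genes). All 21 called genes kept a positive difference in every alternative in which they were tested, the smallest being 0.475; that was 24 alternatives, or 23 for Mx1, Mx2 and Ifih1, whose mean was under 5 FPKM. Usp18, Ifit1, Ifit2, Eif2ak2, Rsad2, Cmpk2, Dtx3l, Parp14 and Ifi44 were called in all 8 fits that left out 1 tumour. The other called genes lost the call in at least 1 of these fits, with adjusted p-values of up to 0.0975. With TPM, which gives every library the same length-scaled total, 13 members were called, beside 1.43% of all genes, and with no filter on low values 6, beside 0.592%.

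**Figure D5:**
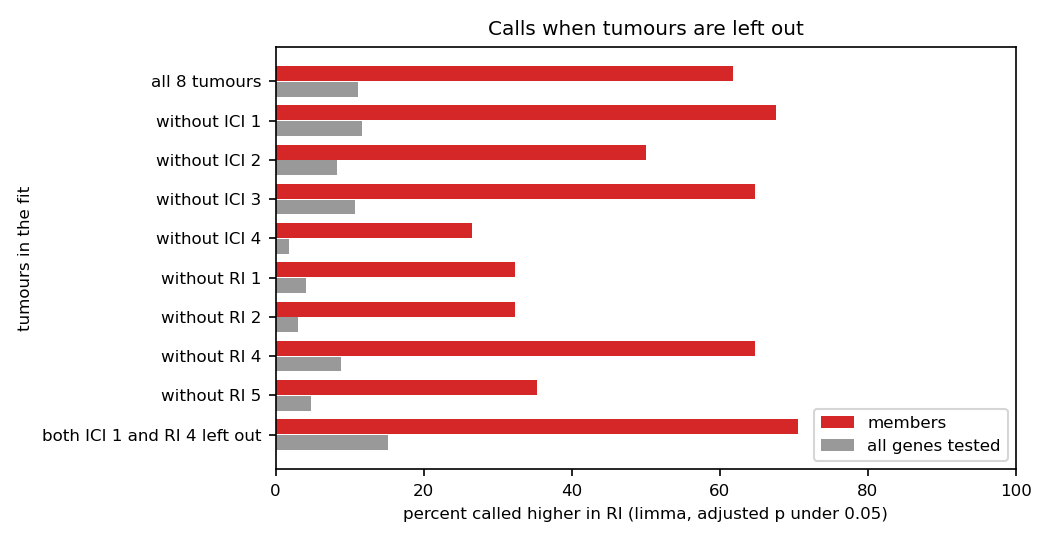
Percent of the 34 members (red) and of all 13439 genes tested (grey) that limma called higher in RI, with all 8 tumours and with the named tumours left out. The members' bars run from 26.5% without ICI 4 to 70.6% without both ICI 1 and RI 4, and each grey bar is shorter than the red bar beside it.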

How the data were processed

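RNA sequencing was carried out on 8 mouse 4T1 tumours, 4 ICI and 4 RI, grouped by the sample titles. The deposited values are FPKM per gene, with HISAT2 and the assembly GRCm38 (mm10) named per the submitters' processing notes. How reads were counted, with which strand setting, annotation or filter, is not given in the sources used here. Members and gene lists were chosen with earlier results of these data known.

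GENCODE M21 (GRCm38) gave coordinates, exon length and GC content for 31407 of 32098 rows. Low FPKM values (up to 50 fragments) rise in steps, which gave the worth of 1 fragment; 98.6% to 98.8% of these lay within 0.05 of a whole number. Fragments served for depth and for 1 alternative fit. All pairs of libraries differed by more than sampling noise (lowest chi-square per gene 30.0).

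The 13439 genes that reached 1 FPKM in 4 or more tumours were tested on log2(FPKM + 1) with limma 3.58.1 in R 4.3.3 (lmFit, eBayes, trend and robust), RI minus ICI and two-sided, with Benjamini-Hochberg adjustment over all of them; every adjusted p is from limma. "Rose" and "fell" are used of adjusted p under 0.05. The fit was tested on simulated data. Type I ligands, Ifng and Ifnl3 below the filter had an exact permutation test, 9 in all.

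All members were named. Values in every tumour are given for both receptors, for members not called, and for the member of each role group with the largest difference or the highest mean. Of the other pathway genes, 8 set genes were to be named, of which 1 is not reported here, and in each list up to 3 called genes per direction. Promoters were those of the 4 most changed members with an ISRE core and of the receptors. Other settings were no filter, a mean of at least 5 FPKM, pseudocounts of 0.1 and 5, TPM, other scalings, quantile normalization, length and GC correction, array weights, plain eBayes, a replicate block, voom on fragments, and tumours left out. FPKM rescaled to the length-weighted total of the rows found in GENCODE M21, without mitochondrial genes, was added after seeing the data.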

Additional observations from a re-analysis of the deposited data

Results flagged for a closer look

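In groups of 4 tumours a value was picked out when its gap to the nearest other value, divided by the range of the group, exceeded Dixon's 95% critical value. Of 68 groups of the members 4 were picked out, and of 30 groups of the 15 pathway genes named 4; chance picks out about 1 group in 20. Ifnar1 in RI 4 was 9.79 FPKM, below the other RI tumours at 12.4 to 12.9 FPKM. Ifnar2 in ICI 1 was 18.9 FPKM, above the other ICI tumours at 9.62 to 10.4 FPKM. In ICI 4, Irf7 was 10.1 FPKM against 18.1 to 18.9 FPKM, and Oasl2 was 9.51 FPKM against 14.9 to 15.3 FPKM in the other ICI tumours. Among pathway genes, Ifnb1 in RI 5 was 0.719 FPKM against 0 to 0.0494 FPKM in the other RI tumours, and Rigi in RI 4 was 9.67 FPKM against 14.9 to 15.8 FPKM. Tyk2 in ICI 1 was 15.7 FPKM against 8.02 to 9.07 FPKM, and Socs1 in ICI 3 was 13.4 FPKM against 8.78 to 9.26 FPKM, in the other ICI tumours.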

How the results depend on the processing

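With 21 members called higher and 0 lower, other settings gave 18 to 26 higher except no filter (6), TPM (13) and the block fits. The replicate block gave 3, beside 0.119% of all genes, and the block with the length and GC correction 0, beside 0.0225%. Leaving out 1 tumour gave 9 to 23, beside 1.81% to 11.7% of all genes. Members lower stayed at 0 in all 24 alternatives. Pathway genes higher, 23, went to 7 with no filter, 6 with TPM, 0 with the block, 0 with the block and correction, and 9 to 26 with 1 tumour left out. Pathway genes lower, 2, went to 0 with no filter, 1 with TPM, 4 with upper-quartile scaling, 4 with median centring, 1 with the length and GC correction, 5 with array weights, 0 with the block, 0 with the block and correction, 4 without ICI 1 and RI 4, and 0 to 4 with 1 tumour left out. Over all genes, median centring gave 1500 higher and 1623 lower calls, beside 1486 and 887. The cause was not tested.

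Among the members and the pathway genes named, differences that changed sign were all of genes not called. With TPM they were 0.011 for Ifnar1, 0.016 for Ifnar2, 0.011 for Samd9l and 0.094 for Epsti1. With array weights they were 0.12 for Ifnar1, 0.18 for Ifnar2 and 0.037 for Samd9l. With the length and GC correction they were 0.071 for Ifi35 and 0.028 for Epsti1, and with the block added 0.085 for Ifi35. Without ICI 1 and RI 4 they were 0.13 for Ifnar1, 0.24 for Ifnar2, 0.078 for Ifi35, 0.16 for Samd9l and 0.12 for Epsti1. Voom gave 0.017 and the rescaled FPKM 0.0071 for Epsti1. With 1 tumour left out the range was -0.17 to 0.046 for Ifnar1, -0.17 to 0.13 for Ifnar2, -0.23 to 0.059 for Ifi35, -0.22 to 0.054 for Samd9l, -0.12 to 0.096 for Epsti1, -0.039 to 0.41 for Irf1 and -0.039 to 0.44 for Socs1.

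The labels give replicate numbers 1, 2 and 4 to both groups, but same-numbered tumours did not deviate together (correlations of -0.0923, -0.12 and -0.124 across genes), so the number is not taken as a pairing. In the block fit, which uses those 3 pairs, Rsad2 and Cmpk2 (adjusted p = 0.0427) and Ifit1 (0.0492) were called. Ifnb1, at 0 to 23 fragments, is limited by depth.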

Other observations

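The interferon-stimulated genes described here lie outside the members and were chosen after their values were seen. Ifitm1 and Ifitm2 encode membrane proteins that restrict virus entry. Ifitm1 stood at 299.6, 42.8, 31.1 and 24.7 FPKM in ICI 1, 2, 3 and 4 and at 14.2, 14.9, 14.2 and 6.48 FPKM in RI 1, 2, 4 and 5, so that every RI tumour was below every ICI tumour (limma adjusted p = 0.0725). Ifitm2 stood at 299.2, 133, 115 and 126 FPKM in ICI and at 82.1, 79.0, 70.3 and 99.3 FPKM in RI, again without overlap (adjusted p = 0.0610). Both were highest in ICI 1, the tumour with the summed neutrophil markers of 21299 FPKM; the part of those cells was not tested. Ifi27l2a was even in ICI, at 15.8, 20.03, 16.3 and 16.6 FPKM, and spread widely in RI, at 28.9, 128, 15.1 and 70.3 FPKM, a difference of 1.34 on the log2 scale (adjusted p = 0.129). Its highest tumour was RI 2, which was the highest RI tumour for 0 of the 34 members.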
